A study of Sus scrofa with 43 samples.

Results

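A set of 7 peptide-hormone and neuropeptide genes of the gut wall, namely GCG, CCK, SST, VIP, CHGA, GHRL and MLN, was followed in the jejunum of piglets over 5 ages. The members were found as array spots whose transcript accession, with its version dropped, is a pig RefSeq transcript of 1 of the 7 symbols. Of the 7 genes, 6 had a probe among the 35884 transcript accessions on the array, and VIP had none, so that no value is given for it. Of these 6, 5 were tested among 12771 accessions, and MLN did not pass the filter on dim genes.

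Jejunal mucosal scrapings of 43 piglets were hybridised, 1 piglet to 1 one-colour Agilent array: 23 piglets of control sows on standard feed, and 20 piglets of sows that also received amoxicillin, a penicillin-type antibiotic, at 15 mg/kg body weight daily by mouth in the last week before farrowing. Only the sows were dosed, and sows of both arms received the same standard gestation and lactation feeds. Control piglets were sampled on day 1 (n = 6), day 7 (n = 6), at weaning (n = 3), 4 d postweaning (n = 5) and 4 wk postweaning (n = 3). Piglets from amoxicillin-treated sows were sampled at the same ages, with n = 4 at each. Hypor sows were used, the study took 1 male piglet per sow at an age, and the labels tie no piglet to its sow or to the study's farrowing batches, so litter could not enter a fit. Scrapings hold epithelium together with immune, stromal and some muscle cells, and fewer cells of a type and less RNA per cell cannot be told apart.

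Enteroendocrine cells are scattered single cells of the gut epithelium that sense the luminal contents and release peptide hormones from granules. CCK, GHRL and MLN are made mainly in the upper gut, whereas cells that process the GCG precursor into glucagon-like peptides become more frequent towards the ileum. SST is a general brake on hormone secretion, VIP is chiefly a peptide of enteric neurons, and CHGA is a structural protein of the granules in most of these cells.

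Values are log2 intensities after background correction and quantile normalization, and a difference of 1 is a doubling of intensity. Each probe has its own brightness, so that levels were compared between piglets and never between genes. GCG (NM_214324), SST (NM_001009583), CHGA (NM_001164005) and GHRL (NM_213807) had 1 probe each, and CCK (NM_214237) and MLN (NM_214235) had 2, which were averaged. GCG, CCK, SST and GHRL were well above background, as the scanner software scores it, on 43 of 43 arrays, MLN on 37 and CHGA on 34. The filter asked for a value over 7.68 on every array of at least 1 group. GCG, CCK and SST met this in all 10 groups, GHRL in 9, and CHGA in 2, the control piglets of day 1 and day 7, where its level was high. CHGA was thus tested because of those groups, and a count over the tested members is a description only.

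Arrays differed in brightness and in slide. Control arrays had 15937 to 29827 gene spots well above background and amoxicillin arrays 16150 to 26290, with medians of 28182 and 21316.5. The arrays lay on 6 slides, none of which held both arms, so that treatment and slide cannot be told apart. Neighbouring ages shared slides within an arm. Markers of enterocytes, the main cells of the villus, gave a summed level (log2 of their summed intensities) between 18.1 and 18.5 on 42 arrays and 16.8 on that of piglet 8 of the amoxicillin group at weaning. On 6 arrays, 1 in each group from weaning onwards, the summed level of distal small intestine markers was 16.0 to 16.3, against 10.73 to 14.90 on the other 37. The sum on these 6 was mostly the signal of 1 marker, FABP6. Those arrays are described beside the results below.

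CHGA, GHRL and CCK changed between ages in both arms. All 3 had higher means on day 1 and day 7 than after weaning in both arms. In the amoxicillin arm the CHGA mean was 7.08 on day 1 and highest, 7.85, at weaning. GCG and SST did not pass the test of a change between ages in either arm. In the control arm 3 of the 5 tested members passed, against a background of 30.5% of all accessions tested, and in the amoxicillin arm the same 3, against 47.0% (limma moderated F-test over the 5 ages, Benjamini-Hochberg adjusted P-value under 0.05). Slide was also entered in the fit as a fixed block, so that ages were compared within slides. In that fit 0.532% of all accessions tested passed in the control arm and 10.4% in the amoxicillin arm. None of the 3 members then passed in the control arm (adjusted P-values 0.348 for CHGA, 0.137 for GHRL and 0.181 for CCK). Of the 3, CHGA alone passed in the amoxicillin arm (0.0371, 0.0551 and 0.344), where GCG passed too (0.00664). Without the arrays of 4 wk postweaning, a choice made after seeing the data, GHRL and CCK did not pass in the amoxicillin arm (0.078 and 0.0585). The range of the 5 age means had a median of 1.55 over the 5 members and 0.82 over all accessions tested.

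**Figure D1:**
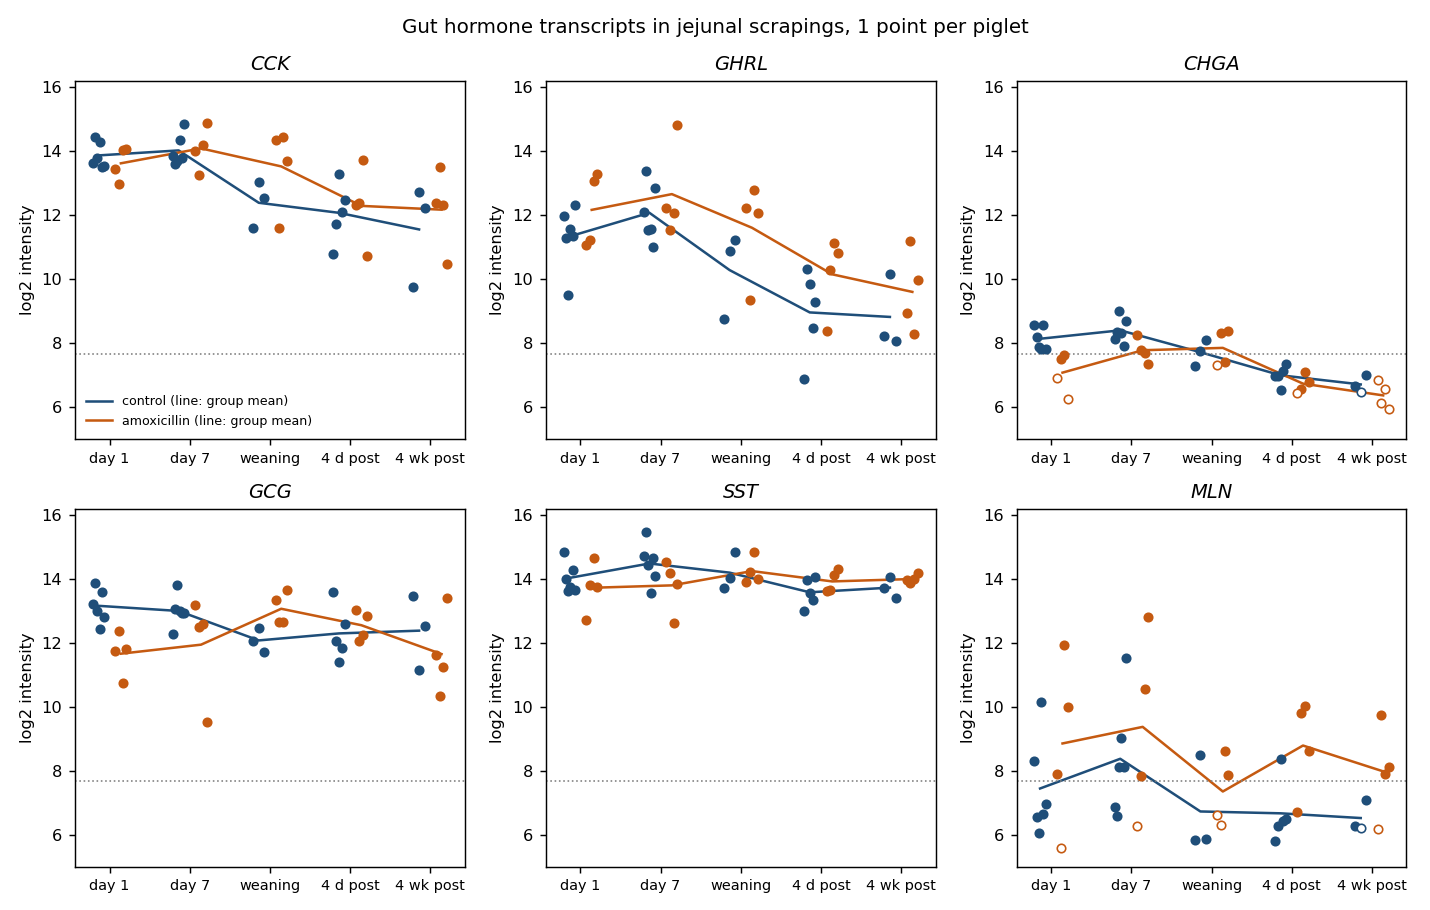
Log2 intensity (y axis) of the 6 genes with a probe at the 5 ages (x axis), 1 point per piglet, with lines through the group means of each arm, open points where the spot was not well above background and a dotted line at the filter floor of 7.68. The means of GHRL and CCK were highest on day 1 and day 7 in both arms and CHGA fell after weaning, whereas the age means of SST spanned 0.90 and 0.52 and MLN scattered widely within groups.

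CCK encodes cholecystokinin, which is released after a meal and drives gallbladder contraction and pancreatic enzyme secretion. In control piglets the lowest, median and highest CCK levels were 13.52, 13.72 and 14.46 on day 1 and 13.61, 13.83 and 14.86 on day 7. Weaning gave 11.59, 12.53 and 13.06, the sampling 4 d postweaning gave 10.79, 11.72, 12.11, 12.47 and 13.29, and that 4 wk postweaning gave 9.74, 12.21 and 12.72. Every control piglet of day 7 thus lay above every control piglet of weaning, a lack of overlap that 7.87% of all accessions tested had, while the ages from weaning onwards overlapped.

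In piglets from amoxicillin-treated sows CCK was 12.96, 13.45, 14.03 and 14.06 on day 1 and 13.25, 14.02, 14.20 and 14.90 on day 7. Piglets at weaning had 11.61, 13.71, 14.35 and 14.45, those 4 d postweaning had 10.72, 12.33, 12.39 and 13.74, and those 4 wk postweaning had 10.49, 12.32, 12.37 and 13.52. In this arm 3 of the 4 piglets at weaning were within the range of day 7, and all neighbouring ages overlapped.

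The CCK age means spanned 2.47 in the control arm, from 14.03 ± 0.48 (SD, n = 6) on day 7 to 11.56 ± 1.59 (SD, n = 3) at 4 wk postweaning, which is 5.55-fold (limma, adjusted P-value 0.00169). They spanned 1.92 in the amoxicillin arm, from 14.09 ± 0.68 to 12.18 ± 1.25 (SD, n = 4 each), which is 3.77-fold (adjusted P-value 0.0287). No single step between neighbouring ages passed the test for CCK. The largest, from day 7 to weaning, was -1.10 (SE 0.44, adjusted P-value 0.1) as the mean of both arms, and within the slides that held both ages it was -1.79 in the control arm and -1.37 in the amoxicillin arm, the latter against 1 piglet of day 7. The amoxicillin-arm call was lost when piglet 24 of day 7, piglet 34 of 4 d postweaning or piglet 40 of 4 wk postweaning was left out (adjusted P-values 0.062, 0.0517 and 0.0678). It was also lost with slide as a random block (adjusted P-value 0.122) and, narrowly, with 1 value per probe in place of the mean of both probes (0.0524).

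GHRL encodes the precursor of ghrelin, an appetite-stimulating peptide made mostly in the stomach and also in the upper small intestine. In control piglets the lowest, median and highest GHRL levels were 9.50, 11.46 and 12.33 on day 1 and 11.01, 11.84 and 13.37 on day 7. Weaning gave 8.76, 10.88 and 11.22, the sampling 4 d postweaning gave 6.89, 8.47, 9.29, 9.84 and 10.33, and that 4 wk postweaning gave 8.07, 8.22 and 10.17. All 8 control piglets after weaning lay below every control piglet of day 7 (9.47% of all accessions tested had no overlap there), although neighbouring ages overlapped.

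In piglets from amoxicillin-treated sows GHRL was 11.08, 11.22, 13.08 and 13.31 on day 1 and 11.55, 12.07, 12.22 and 14.81 on day 7. Piglets at weaning had 9.34, 12.07, 12.24 and 12.79, those 4 d postweaning had 8.37, 10.29, 10.81 and 11.15, and those 4 wk postweaning had 8.30, 8.96, 9.97 and 11.19. As in the control arm, the 8 piglets after weaning all lay below the 4 piglets of day 7 (no overlap in 5.82% of all accessions tested), and neighbouring ages overlapped.

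GHRL had the widest course of the tested members. Its age means spanned 3.26 in the control arm, from 12.08 ± 0.89 (SD, n = 6) on day 7 to 8.82 ± 1.17 (SD, n = 3) at 4 wk postweaning, or 9.56-fold (limma, adjusted P-value 0.00154). In the amoxicillin arm they spanned 3.06, from 12.66 ± 1.46 to 9.60 ± 1.26 (SD, n = 4 each), or 8.33-fold (adjusted P-value 0.00813). Averaged over both arms, GHRL differed by -1.42 (SE 0.58, adjusted P-value 0.106) from day 7 to weaning and by -1.39 (SE 0.59, adjusted P-value 0.110) from weaning to 4 d postweaning, and neither step passed. The second step was larger with slide as a fixed block, at -2.54 (adjusted P-value 0.0379), and passed too when piglet 8 of the amoxicillin group at weaning was left out (adjusted P-value 0.0357). Within slides the difference was -3.40 in the control arm, with 3 piglets against 1, and -1.67 in the amoxicillin arm, with 4 against 3. That 1 control piglet, piglet 10, had the lowest GHRL level of all 43, 6.89, and was among the 6 high in distal markers.

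CHGA encodes chromogranin A, the granule protein by which enteroendocrine cells are commonly recognised. In control piglets its lowest, median and highest levels were 7.81, 8.04 and 8.57 on day 1 and 7.92, 8.34 and 8.99 on day 7. Weaning gave 7.29, 7.77 and 8.10, the sampling 4 d postweaning gave 6.55, 6.96, 6.97, 7.14 and 7.36, and that 4 wk postweaning gave 6.48, 6.65 and 7.01. All 12 control piglets of the first week lay above all 8 control piglets after weaning, and 6.81% of all accessions tested had no overlap between these ages. CHGA passed the filter only through these first-week control groups, so that this lack of overlap is a description only.

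In piglets from amoxicillin-treated sows CHGA was 6.25, 6.91, 7.52 and 7.64 on day 1 and 7.36, 7.70, 7.80 and 8.27 on day 7. Piglets at weaning had 7.31, 7.42, 8.30 and 8.38, those 4 d postweaning had 6.45, 6.58, 6.80 and 7.11, and those 4 wk postweaning had 5.95, 6.13, 6.55 and 6.84. The 4 piglets of weaning all lay above the 4 piglets of 4 d postweaning (no overlap in 5.93% of all accessions tested), and day 1 overlapped with every later age. None of the 4 arrays at 4 wk postweaning was well above background for CHGA in this arm, so that its level there is uncertain, and on day 1 only 2 of 4 arrays were.

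CHGA passed the test of a change between ages in the control arm (limma, adjusted P-value 1.6e-05), with means from 8.40 ± 0.39 (SD, n = 6) on day 7 to 6.71 ± 0.27 (SD, n = 3) at 4 wk postweaning, or 3.23-fold. It entered the test through the control groups of day 1 and day 7, where it was high, and in a fit of all accessions with no filter the adjusted P-values were 5.72e-05 in the control and 0.000447 in the amoxicillin arm. It passed in the amoxicillin arm as well (adjusted P-value 0.000204), where the mean of 7.85 ± 0.57 (SD, n = 4) at weaning was 2.66-fold above that of 4 wk postweaning. For this each dim array took the higher of its own value and its lowest signal well above background, a mean of 6.44 beside 6.37 as measured. The fold is not a firm lower limit, since at weaning only 3 of 4 arrays were well above background for CHGA. From weaning to 4 d postweaning CHGA fell by 0.92 on the log2 scale as the mean of both arms (SE 0.21, adjusted P-value 0.00414), a 1.89-fold decrease. This was the 1 member called in that step, in which 13.7% of all accessions tested were called. Within slides the difference was -0.75 in the control arm, with 3 piglets against 1, and -1.14 in the amoxicillin arm, with 4 against 3. The step was -0.72 in the control arm alone (adjusted P-value 0.173) and -1.12 in the amoxicillin arm alone (adjusted P-value 0.0187), and with slide as a fixed block it was -0.945 (adjusted P-value 0.0577).

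In the other 3 steps no member was called, against 3.13% of all accessions tested from day 1 to day 7, 11.5% from day 7 to weaning and 5.43% from 4 d to 4 wk postweaning. At an unadjusted P-value under 0.05, limma gave CHGA for the first of these steps, GHRL and CCK for the second and no member for the last. CHGA was 0.48 higher on day 7 than on day 1 (SE 0.19, adjusted P-value 0.197).

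**Figure D2:**
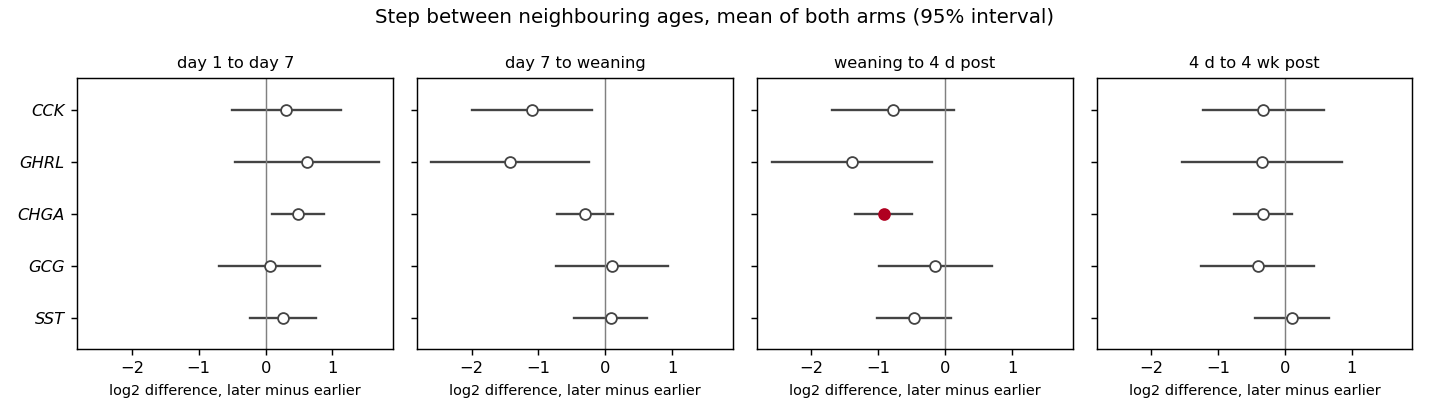
Log2 difference of each tested member from the age before (x axis), as the mean of both arms with its 95% confidence interval. Filled points passed at an adjusted P-value under 0.05, which held for CHGA at 4 d postweaning (-0.92), and before adjustment the intervals of CCK at weaning and of GHRL at weaning and 4 d postweaning also lay below 0 and that of CHGA on day 7 above it.

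GCG encodes proglucagon, from which L cells cut the glucagon-like peptides that promote insulin release and growth of the mucosa. In control piglets the lowest, median and highest GCG levels were 12.45, 13.12 and 13.89 on day 1 and 12.27, 12.97 and 13.81 on day 7. Weaning gave 11.73, 12.05 and 12.46, the sampling 4 d postweaning gave 11.40, 11.83, 12.06, 12.61 and 13.60, and that 4 wk postweaning gave 11.16, 12.52 and 13.48. These groups overlapped from each age to the next.

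In piglets from amoxicillin-treated sows GCG was 10.74, 11.75, 11.81 and 12.36 on day 1 and 9.52, 12.49, 12.60 and 13.18 on day 7. Piglets at weaning had 12.65, 12.66, 13.33 and 13.64, those 4 d postweaning had 12.08, 12.26, 12.85 and 13.05, and those 4 wk postweaning had 10.33, 11.25, 11.64 and 13.40. Here the highest age mean was that of weaning, 13.07 ± 0.50 (SD, n = 4), the age at which the control arm had its lowest, 12.08 ± 0.37 (SD, n = 3).

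GCG did not pass the test of a change between ages (limma, adjusted P-values 0.361 in the control and 0.132 in the amoxicillin arm). The amoxicillin-arm value came to 0.00664 with slide as a fixed block, to 0.0302 without the 6 arrays high in distal markers, to 0.040 without piglet 24 of day 7 and to 0.0305 without piglet 40 of 4 wk postweaning. The fixed-block value leans on single arrays. On the slide that held day 7 and weaning of this arm, the GCG step was 3.55, with piglet 24 alone against 4 piglets. The slide that held 4 d and 4 wk postweaning likewise had 1 piglet against 4. As the mean of both arms the 4 steps of GCG lay between -0.41 and 0.10, and the 95% confidence interval of the step to weaning ran from -0.73 to 0.93.

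SST encodes somatostatin, which inhibits the release of most other gut hormones and of gastric acid. Its group means lay between 13.59 ± 0.44 (SD, n = 5) at 4 d postweaning and 14.49 ± 0.64 (SD, n = 6) on day 7 in the control arm, and between 13.73 ± 0.79 on day 1 and 14.25 ± 0.43 at weaning in the amoxicillin arm (SD, n = 4 each). Single piglets ranged from 12.63 to 15.46, and all neighbouring ages overlapped in both arms. SST did not pass the test between ages (limma, adjusted P-values 0.174 and 0.731), and its largest step, at 4 d postweaning, was -0.47 with a 95% confidence interval from -1.02 to 0.08.

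MLN encodes motilin, which starts the fasting contractions of the stomach and small intestine. It was not tested, since no group had all arrays above the floor, although 22 of 43 arrays were. The lowest, median and highest MLN levels of control piglets were 6.06, 6.82 and 10.15 on day 1 and 6.60, 8.13 and 11.52 on day 7. In piglets from amoxicillin-treated sows MLN was 5.57, 7.92, 10.01 and 11.93 on day 1 and 6.27, 7.84, 10.57 and 12.82 on day 7. From weaning onwards single piglets lay between 5.81 and 8.48 in the control arm and between 6.18 and 10.02 in the amoxicillin arm, so that every age overlapped with the others. Pooled SDs within groups were 1.42 in the control and 2.07 in the amoxicillin arm, beside ranges of age means of 1.85 and 2.02. The 2 MLN probes differed by -4.22 to 5.81 on the same array (Pearson's r 0.806 over 43 arrays), whereas those of CCK differed by -0.61 to 0.86 (r 0.978). In a fit of all 35884 accessions with no filter, MLN did not pass in either arm (limma, adjusted P-values 0.678 and 0.539).

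The comparison of arms asked whether dosing of the sow went with other hormone levels in the offspring. No member was called at any age with an adjusted P-value under 0.05 and a log2 difference beyond 1.5, where 0.211% of all accessions tested were called on day 1, 0% on day 7, 3.41% of them at weaning, and after weaning 1.54% at 4 d and 2.13% at 4 wk. At an unadjusted P-value under 0.05, limma gave CHGA and GCG on day 1, CHGA on day 7 and no member at the later ages.

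On day 1 the 4 CHGA values of the amoxicillin arm, 6.25 to 7.64, all lay below the 6 of the control arm, 7.81 to 8.57. The difference was -1.06 (SE 0.27, limma, adjusted P-value 0.077), and 5.79% of all accessions tested had no overlap of the arms at this age. CHGA passed the filter only through the control groups of day 1 and day 7, whose values were all over 7.68. This lack of overlap is thus a description only. On 2 of these 4 amoxicillin arrays CHGA was not well above background, so that the lower values are less certain. With 1 setting changed at a time and all arrays of day 1 kept, the adjusted P-value of this difference ranged from 0.021 with no filter to 0.682 with slide as a random block, and its size from -1.14 to -1.04, so that it stayed below the fold threshold. Leaving out 1 array gave sizes from -1.25 to -0.784, also below it, and adjusted P-values from 0.0265 to 0.257. With no filter and 4 other treatments of the signal, combined after seeing the data, the difference was -0.828, -0.955 and -1.06 (adjusted P-values 0.018, 0.0407 and 0.0214) with a normexp offset of 50, normexp values at a common 75th percentile and outlier-flagged spots kept. It was -1.63 (adjusted P-value 0.00414) with the signal as processed by the scanner software, likewise scaled to a shared 75th percentile, the 1 of the 4 past both thresholds. Amoxicillin arrays of day 1 had 20321 to 25580 gene spots well above background and control arrays 28042 to 29827. The part of this gap in the difference was not tested.

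GCG too did not overlap on day 1, at 10.74 to 12.36 in the amoxicillin and 12.45 to 13.89 in the control arm, a difference of -1.50 (SE 0.53, limma, adjusted P-value 0.253). At weaning, where 12.7% of all accessions tested had no overlap, the GCG values of the arms again did not overlap, with the amoxicillin arm higher by 0.99 (SE 0.63, adjusted P-value 0.371). GHRL was higher in the amoxicillin arm at all 5 ages, by 0.58 to 1.32, with adjusted P-values from 0.406 to 0.951, and the arms overlapped at each age. The CCK difference was widest at weaning, at 1.14 (95% confidence interval from -0.23 to 2.51), and that of SST on day 7, at -0.68 (95% confidence interval from -1.38 to 0.01).

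**Figure D3:**
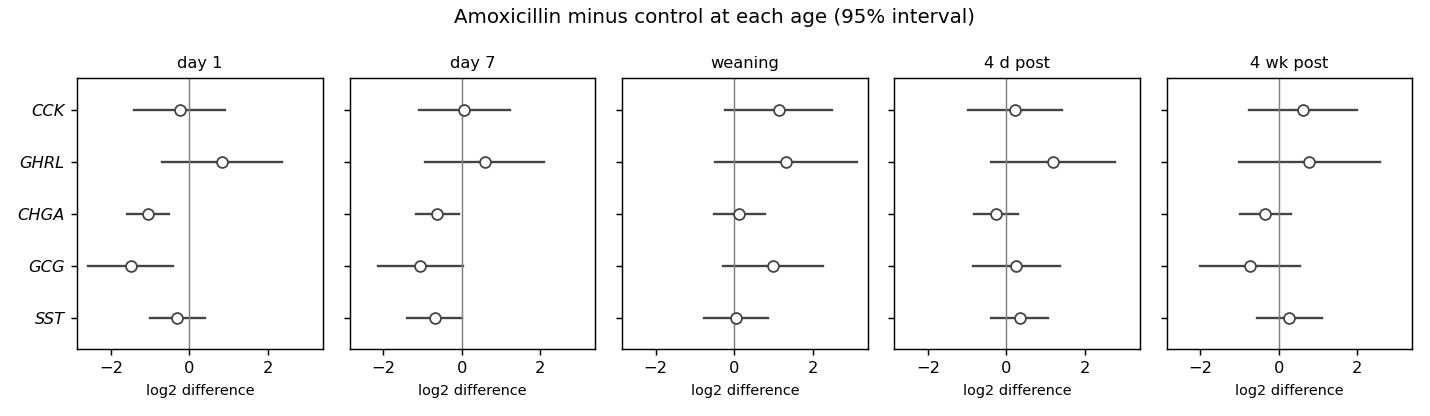
Amoxicillin minus control log2 difference (x axis) of each tested member at the 5 ages, with its 95% confidence interval. No point passed the test after adjustment, and the intervals that lay wholly below 0 were those of CHGA and GCG on day 1 and of CHGA on day 7.

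Whether the difference between arms itself varied over the ages was tested with 1 F-test per accession. No member passed, against 6.18% of all accessions tested. GCG came to an adjusted P-value of 0.186 (unadjusted 0.0279), CHGA to 0.305, SST to 0.575, CCK to 0.835 and GHRL to 0.991 (limma). With slide as a fixed block GCG came to an adjusted P-value of 0.0191, and its range over all the other settings was up to 0.28.

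Within groups CCK, GHRL and MLN varied in the same direction from piglet to piglet and GCG in the opposite one. Deviations from the group mean over 43 arrays correlated positively between CCK and GHRL (Pearson's r 0.514, Spearman's rho 0.484), CCK and MLN (0.474, 0.578) and GHRL and MLN (0.537, 0.523). Those of GCG correlated negatively with CCK (-0.533, -0.443), GHRL (-0.456, -0.414) and MLN (-0.493, -0.372). SST correlated with GHRL (0.422, 0.432), and its other coefficients lay between -0.0993 and 0.277, while those of CHGA lay between -0.166 and 0.277. By arm, Pearson's r of GHRL and MLN was 0.252 in control and 0.734 in amoxicillin piglets, and that of GCG and MLN was -0.18 and -0.665. For CCK and MLN it was 0.503 and 0.458. The arrays share their normalization and slides. Within single slides the coefficient of GCG and CCK ranged from -0.887 to 0.121 and that of CCK and GHRL from -0.294 to 0.89. Piglet 24 of the amoxicillin group on day 7 had the lowest GCG level of all 43 piglets, 9.52, together with the highest of GHRL, 14.81, MLN, 12.82, and CCK, 14.90.

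FABP6, the ileal bile acid binding protein, SLC10A2, the ileal bile acid transporter, and TCN2, the vitamin B12 carrier, were 3 of 7 listed distal small intestine markers with a probe. The list was added after FABP6 had been seen to vary. The 6 arrays with a summed level of 16.0 to 16.3 were those of control piglets 7 (weaning), 10 (4 d postweaning) and 13 (4 wk postweaning) and of amoxicillin piglets 8, 10 and 40 of the same ages. FABP6 alone was 15.77 to 15.99 on them, so that the summed level there mostly reads FABP6, not 3 markers alike. FABP6 rose by 4.70 from day 7 to weaning as the mean of both arms (SE 1.29, limma, adjusted P-value 0.015), and the other two markers were not called at that step. On these 6 arrays CCK was the lowest of its group on 5, at a median of -1.93 against the mean of the other piglets of the group. GHRL was the lowest on 4 (median -2.33) and GCG the highest on 4 (median 1.14). Over all 43 arrays the deviations from group means correlated with those of the summed markers at r -0.549 for CCK, -0.396 for GHRL and 0.38 for GCG. With the summed enterocyte markers they correlated at 0.522 for CCK, 0.505 for GHRL and 0.0434 for GCG.

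Without those 6 arrays, a choice made after seeing the data, CCK, GHRL and CHGA still passed between ages in the control arm (limma, adjusted P-values 0.00346, 0.00393 and 0.000125) and in the amoxicillin arm (0.00537, 0.00371 and 0.0047). GCG then passed in the amoxicillin arm (adjusted P-value 0.0302). The CCK step from day 7 to weaning was -0.58 (adjusted P-value 0.307) in place of -1.10, and that from weaning to 4 d postweaning was -1.14 (adjusted P-value 0.0314) in place of -0.77, past the threshold. The GHRL step to weaning was -0.66 (adjusted P-value 0.471) in place of -1.42, and the CHGA step to 4 d postweaning was -0.90 (adjusted P-value 0.0119).

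**Figure D4:**
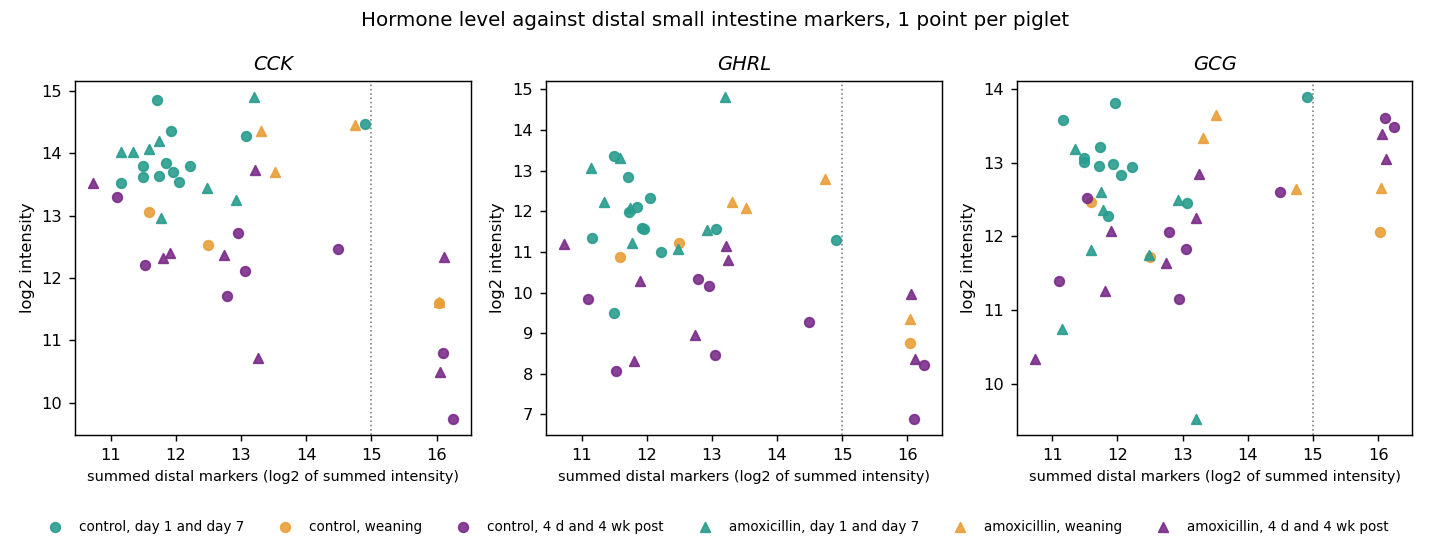
Log2 intensity of CCK, GHRL and GCG (y axes) against the log2 of the summed intensity of 3 distal small intestine markers (x axis), 1 point per piglet, with arm as shape, age as colour and a dotted line at 15. Of the 6 arrays to the right of the line, 5 had the lowest CCK level of their group, 4 the lowest GHRL level and 4 the highest GCG level.

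Of 21 listed granin and prohormone processing genes, 9 had a probe and 5 were tested, of which 4 changed between ages in the control arm (30.5% of all accessions tested) and 5 in the amoxicillin arm (47.0%). CHGB, the second chromogranin, had age means (averages of both arms) of 9.62, 9.89, 8.97, 8.23 and 7.70 from day 1 to 4 wk postweaning (limma, adjusted P-values 1e-04 and 0.0131). SCG2, a granin that gives rise to secretoneurin, fell by 1.05 from day 7 to weaning (SE 0.27, adjusted P-value 0.00862) and by 0.88 from weaning to 4 d postweaning (SE 0.27, adjusted P-value 0.0268). CPE, the carboxypeptidase that trims prohormone fragments, fell at the same steps by 0.82 (SE 0.25, adjusted P-value 0.0268) and 0.92 (SE 0.25, adjusted P-value 0.0131).

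The other two tested genes of that list were SCG5 and DPP4. SCG5, a chaperone of a prohormone convertase, fell by 1.00 at 4 d postweaning (SE 0.34, limma, adjusted P-value 0.0459), with its highest age mean, 8.66, at weaning. DPP4, a brush border peptidase that also inactivates glucagon-like peptide 1, went the other way and rose by 1.03 from day 1 to day 7 (SE 0.18, adjusted P-value 0.000294).

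**Figure D5:**
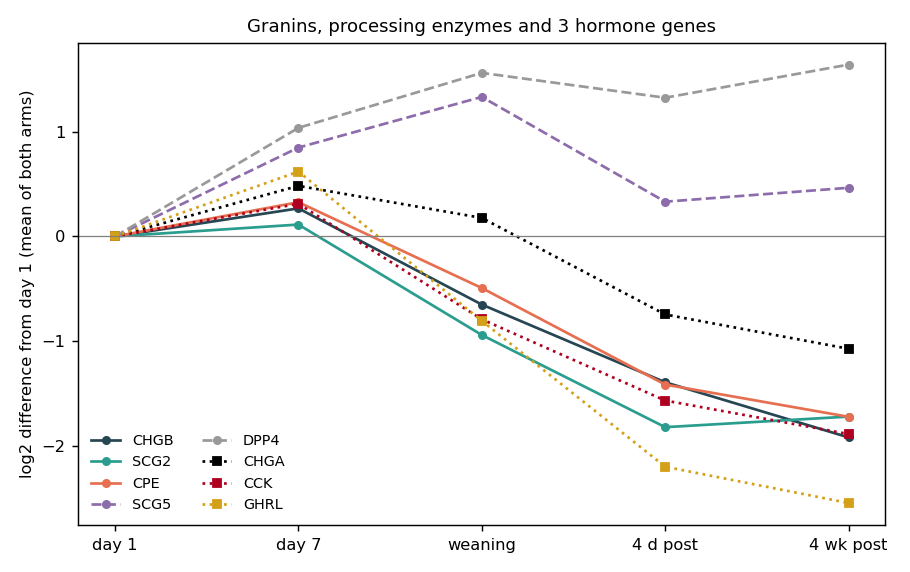
Age means of log2 intensity, averaged over both arms and shown relative to day 1 (y axis), for the 5 tested granin and prohormone processing genes (circles) and for CHGA, CCK and GHRL (squares, dotted lines) over the 5 ages (x axis). CHGB, SCG2, CPE and the 3 hormone genes lay below their day 1 level after weaning, while SCG5 and DPP4 lay above it from day 7 onwards.

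Of 28 other gut hormones and neuropeptides, 12 had a probe and 6 were tested, of which 2 changed between ages in the control arm, a share near the 30.5% of all accessions tested, and 4 in the amoxicillin arm, against 47.0%. CALCB, the beta form of calcitonin gene-related peptide, rose by 1.5 from day 1 to day 7 (SE 0.36, limma, adjusted P-value 0.00971) and fell by 1.22 from weaning to 4 d postweaning (SE 0.40, adjusted P-value 0.0352). ADM, the vasodilator peptide adrenomedullin, rose by 1.16 at 4 d postweaning (SE 0.27, adjusted P-value 0.00416) and fell by 1.94 to 4 wk postweaning (SE 0.27, adjusted P-value 7.27e-05). GUCA2B, which encodes uroguanylin, a regulator of salt and water secretion, passed in the amoxicillin arm (adjusted P-value 0.0457) and had an adjusted P-value of 0.433 in the control arm.

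Of 27 listed hormone receptors, 8 had a probe and 3 were tested. Between ages 1 of the 3 changed in both arms, against 30.5% of all accessions tested in the control and 47.0% in the amoxicillin arm. That was SSTR5, a somatostatin receptor, which fell by 1.5 from weaning to 4 d postweaning (SE 0.33, limma, adjusted P-value 0.0026). SSTR3, another somatostatin receptor, had adjusted P-values of 0.69 and 0.0816 between ages, and VIPR1, a receptor of VIP, of 0.279 and 0.21.

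Of 11 genes of serotonin handling, 4 had a probe and 2 were tested, and of 16 luminal nutrient sensors both that had a probe were tested. MAOA, which degrades serotonin, rose by 1.22 from day 7 to weaning (SE 0.30, limma, adjusted P-value 0.00772) and by 1.35 from 4 d to 4 wk postweaning (SE 0.31, adjusted P-value 0.00928), whereas MAOB passed in neither arm (adjusted P-values 0.166 and 0.75). TAS1R3, a subunit of the sweet and umami taste receptors, fell by 1.59 from weaning to 4 d postweaning (SE 0.33, adjusted P-value 0.00183). SLC5A1, the sodium-glucose cotransporter, passed in the control arm (adjusted P-value 0.0134) and had an adjusted P-value of 0.234 in the amoxicillin arm. Of 20 enteroendocrine transcription factors 3 had a probe and 1 was tested, FOXA1, which rose by 0.93 at 4 d postweaning (SE 0.25, adjusted P-value 0.0118).

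Among markers of other cells in a scraping, none of the 6 enteric neuron markers and none of the 4 enteric glia markers with a probe passed the filter. The 5 tested smooth muscle markers passed between ages in the control arm (30.5% of all accessions tested) and none in the amoxicillin arm (47.0%). Of them 1 fell at 4 d postweaning, the step at which CHGA fell and 13.7% of all accessions tested were called. The summed level of the 6 smooth muscle markers with a probe ranged over 12.69-14.13 at weaning and 11.31-13.40 at 4 d postweaning in control piglets, and over 12.03-14.06 and 11.59-14.20 in piglets from amoxicillin-treated sows. All 6 tested T cell markers passed in both arms, against the same shares. The summed level of the 7 with a probe was 9.15 to 10.06 on day 1 and 12.62 to 13.81 at 4 wk postweaning. None of the 6 tested enterocyte markers passed in either arm, again against 30.5% and 47.0% of all accessions tested. Their age means lay between 14.96 and 16.00, at the bright end of the scale, where a change could be missed. The 2 tested B cell markers, MS4A1 and CD79A, rose by 3.55 and 3.41 from day 7 to weaning as the mean of both arms (limma, adjusted P-values 0.0023 and 0.00512), a step at which 11.5% of all accessions tested were called. Between ages they passed in the amoxicillin arm (0.00859 and 0.00545) and not in the control arm (0.0968 and 0.0731). MS4A1 was well above background on 23 arrays. At weaning the summed level of the 3 B cell markers with a probe spread widely, over 8.36-14.90 in control and 8.81-15.37 in amoxicillin piglets. Of 2 tested gastric markers, ATP4A differed between arms by 1.89 at weaning (adjusted P-value 0.0326) and PGC by -1.59 at 4 d postweaning (adjusted P-value 0.0099), and the summed level of the 6 gastric markers with a probe was 8.40 to 8.66 in control and 8.95 to 9.63 in amoxicillin piglets at weaning. The part of these cells in the hormone courses was not tested.

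The genes whose 10 group means followed a member most closely, out of 1885 compared with a symbol, are given as a description. For CCK they were JAK1 (Pearson's r 0.978), CHGB (0.973) and DGAT2 (0.969), and for GHRL JAK1 (0.986), PGRMC2 (0.979) and DGAT2 (0.971). For CHGA they were EPAS1 (0.971), GDF9 (0.940) and KDM1A (0.932). The closest to SST were KLF13 (0.852), PCK1 (0.810) and SLC30A7 (0.784), and to GCG TIGD4 (0.768), USB1 (0.753) and MED20 (0.701).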

How the data were processed

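Scanner output of 43 arrays (Agilent Feature Extraction 10.7.3.1) was used. The deposited intensity values are median spot and background signals. Per the labels and methods, the authors processed them with limma in R 3.0.2, and the authors' log2 table was matched within 5e-09 by normexp background correction (offset 1) and quantile normalization in limma 3.58.1 (R 4.3.3). Outlier-flagged spots were left out, and probes were averaged per accession. The floor was 1.1 times the brightest dark spot (6.98). One fit of 10 groups without covariates gave the treatment contrasts, age F-tests and steps, with Benjamini-Hochberg adjustment over 12771 accessions. It was tested on simulated data. P-values measure spread between piglets, and the number of arrays limits precision. The array annotation's genome build is not given in the sources used here, and gene names came from RefSeq tables. Named genes were all members, the 3 tested genes per pathway list with the widest range of age means, and per member the 3 genes most alike. SCG5 and DPP4 were named after their values were seen, to complete their list. Members and lists were chosen with earlier results of these data known. Alternatives covered background, normalization, filter, outlier spots, probes, slide, piglet number, single arrays and, chosen after seeing the data, 2 sets of arrays.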

Additional observations from a re-analysis of the deposited data

Results flagged for a closer look

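Among 48 groups of a member in an arm and age, 2 held a piglet far from the others by Dixon's test, and chance alone gives about 1 in 20 groups (5%). Control piglet 18 of day 1 had a GHRL level of 9.50, the lowest of 6. Control piglet 30 of 4 d postweaning had an MLN level of 8.37, the highest of 5.

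GCG is listed because the arms did not overlap at 2 ages with opposite signs. Of all accessions tested, 5.79% had no overlap of the arms on day 1 and 12.7% at weaning. The amoxicillin arm was lower on day 1, by -1.50, and higher at weaning, by 0.99. The difference between these 2 ages was not tested on its own, and the F-test over all 5 ages gave an adjusted P-value of 0.186 (limma).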

How the results depend on the processing

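The control arm had 3 members called between ages (CHGA, GHRL and CCK) and 0 with slide as a fixed block, which leaves the comparisons within slides. In that fit 0.532% of all accessions tested were called in the control arm. The amoxicillin arm had 3, and 1 (CHGA) without the 4 wk postweaning arrays, a setting chosen after seeing the data. With slide as a fixed block GHRL and CCK were lost in this arm and GCG was gained (limma, adjusted P-values 0.0551, 0.344 and 0.00664). The 1 call among steps became 0 with a normexp offset of 50, with the processed signal or normexp values at a common 75th percentile and with outlier-flagged spots kept, where CHGA did not pass the filter (its unfiltered step was -0.706 to -1.24), and 0 in the control arm alone. It became 2, CHGA and CCK, without the 6 arrays highest in distal markers, also chosen after seeing the data. With slide as a fixed block the 1 call was GHRL at 4 d postweaning (limma, adjusted P-value 0.0379) in place of CHGA (0.0577). The 0 calls on the variation of the treatment difference became 1, GCG, with slide as a fixed block. Leaving out each array in turn gave 3 to 3 calls in the control arm, 2 to 3 in the amoxicillin arm, 1 to 2 among steps, 0 to 0 for treatment and 0 to 0 for its variation. No treatment call arose under any of these settings, although CHGA on day 1 passed both thresholds with the processed, percentile-scaled signal and no filter together, and no called result changed sign. Piglet numbers did not pair the arms (10 pairs, correlations of deviations from -0.274 to 0.443, 4 over 0.1), and a replicate block on them gave the same 3, 3, 1, 0 and 0 calls, with a CHGA step of -0.939.

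Counts over all accessions moved more. With slide as a fixed block, the control arm had 68 accessions called in place of 3900 and the amoxicillin arm 1328 in place of 6000, and with no filter the latter had 12471. Treatment calls on day 1 ranged from 0 with outlier-flagged spots kept to 787 with no filter, against 27. With only the arrays of the age, the 435, 197 and 272 calls of the later 3 ages became 2, 1 and 5, and with slide as a random block 122, 0 and 65, while leaving out 1 array gave 47 (amoxicillin piglet 32) to 441 (amoxicillin piglet 34) at 4 d and 126 (control piglet 34) to 534 (amoxicillin piglet 40) at 4 wk postweaning. CHGA was near the floor, so its low levels are the least certain.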

Other observations

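INS, the insulin gene (NM_001109772), was read as 1 of 3 tested pancreas markers and was singled out after its values were seen. Its level on day 1 was 12.75 ± 0.88 (SD, n = 6) in control piglets and 12.28 ± 0.65 (SD, n = 4) in piglets from amoxicillin-treated sows. On day 7 it was 7.68 ± 0.88 and 7.20 ± 1.04, and as the mean of both arms it fell by 5.08 (SE 0.33, limma, adjusted P-value 2.87e-14). It was not well above background on any array of 4 wk postweaning. With each array there set to the higher of its own value and its lowest signal well above background, day 1 was 116-fold higher in the control arm. In the amoxicillin arm it was 115-fold higher. These folds are not firm lower limits, since a spot not well above background can be brighter than that lowest signal. The other two tested pancreas genes, CLPS and CELA2A, were not called between ages in either arm.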
